A study of Drosophila melanogaster with 4 samples.

Results

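XHet and YHet are the mapped pieces of X and Y chromosome heterochromatin that FlyBase release 5 of the Drosophila melanogaster genome holds apart from the chromosome arms. Each was cut from its first base into consecutive tiles of 1 kb, which gave 205 tiles for the 204112 bp of XHet and 348 tiles for the 347038 bp of YHet. The last tile is shorter, with 112 bp on XHet and 38 bp on YHet. These 553 tiles were taken from 139719 tiles on the 13 release 5 sequences that carried a cluster, and from 168724 tiles when Uextra, which carried none, was included.

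Histone H3 dimethylated at lysine 9 (H3K9me2) was mapped by chromatin immunoprecipitation and sequencing (ChIP-seq) in wild-type embryos of the strain Oregon-R (Oregon-R-modENCODE), aged 14 to 16 h. There were 2 ChIP libraries, made with a new lot of the antibody H3K9me2-Ab2, and 2 input libraries that served as their references. The values come from 3 lists of clusters, which are regions of significant enrichment called by the authors, 1 list for each ChIP replicate and 1 for both together (the pooled list). The embryos were used whole, so all cell types are mixed, and the labels give neither the sex of the embryos nor whether the replicates came from separate collections. SDs between the replicates therefore measure the spread between these libraries, which may be technical. The replicate lists held 3579 and 3238 clusters over the genome and the pooled list 4277, and as the lists give no read counts, sequencing depth at a cluster is not known.

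H3K9me2 is written by histone methyltransferases that include Su(var)3-9 and Eggless, and methylated lysine 9 of histone H3 is bound by Heterochromatin Protein 1, which packs the silent, repeat-rich DNA around centromeres. The Drosophila Y chromosome is heterochromatic along its whole length, is carried by males, and holds few genes, among them male fertility factors that are transcribed in the male germ line. The heterochromatin of the X lies around its centromere and, like the Y, holds the repeated genes for ribosomal RNA. No gene was placed on XHet or YHet here, because cluster positions are those of release 5 and the genes used for names have positions of release 6.

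Marking by H3K9me2 covered most of YHet in domains spread from end to end and broken by gaps, whereas on XHet it was split into a densely covered stretch at the right and a long, sparsely covered stretch at the left. At least 50% of the tile was covered in both replicates in 244 of 348 YHet tiles and in 69 of 205 XHet tiles. These are 70.1% (95% Wilson interval 65.1 to 74.7%) and 33.7% (27.5 to 40.4%), intervals that treat tiles as independent and cover counting error only. The same criterion was met by 15.0% of all tiles on the 13 sequences with a cluster and by 74.1% of the tiles of the 4 autosomal Het sequences (2LHet, 2RHet, 3LHet and 3RHet), so YHet lay near the autosomal heterochromatin and XHet between it and the genome. In replicate 1 clusters covered 72.0% of YHet and 37.0% of XHet, a difference of 35.0 percentage points. In replicate 2 they covered 70.9% and 38.0%, a difference of 33.0 percentage points. The mean difference was 34.0 ± 1.46 percentage points (SD, n = 2). This SD covers the spread between the 2 libraries only, and a test was not made with 2 libraries of 1 condition. In the authors' pooled list the difference was 24.9 percentage points, with 76.5% of YHet and 51.5% of XHet covered. The size of the difference thus moved between lists by more than this SD.

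Tiles were mostly either free of H3K9me2 clusters or fully inside them. A tile is partly covered only where a cluster edge falls in it, and no replicate cluster was shorter than 1301 bp. The size of the partly covered class is thus set by the number of cluster edges and the tile size. On YHet 226 tiles were fully covered, 48 partly covered and 74 free in replicate 1. In replicate 2 these numbers were 220, 48 and 80. On XHet 65 tiles were fully covered, 22 partly covered and 118 free in replicate 1, and 62, 28 and 115 in replicate 2. Free tiles were thus the most numerous class on XHet and fully covered tiles on YHet, in both replicates. The autosomal sequence 2LHet, which at 368872 bp is close to YHet in length, had 231 full and 100 free tiles of 369 in replicate 1 and 223 and 107 in replicate 2, proportions near those of YHet.

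**Figure D1:**
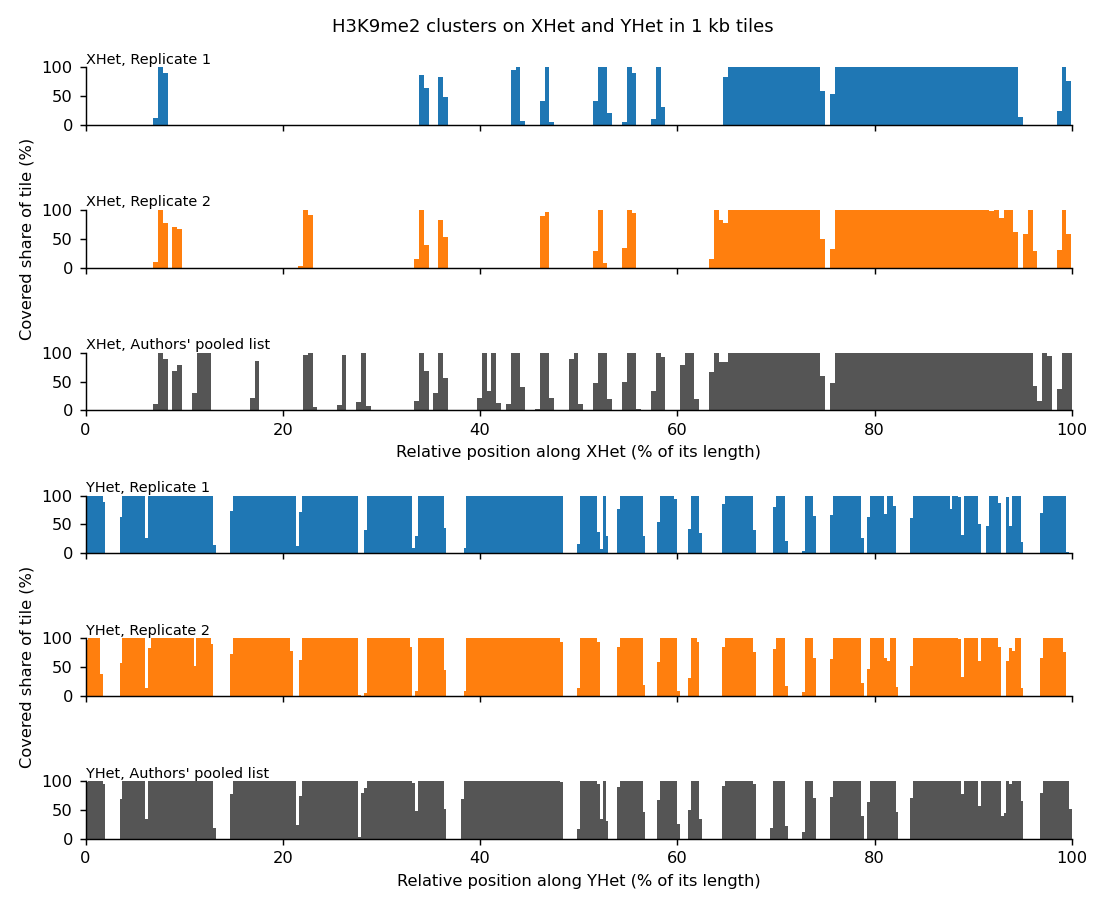
Covered share of each 1 kb tile (percent, vertical axis) against the relative position along XHet (upper 3 panels) and YHet (lower 3 panels), for replicate 1, replicate 2 and the authors' pooled list. Bars fill most of YHet in each list, while XHet has narrow bars on the left and a nearly solid block on the right.

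**Figure D2:**
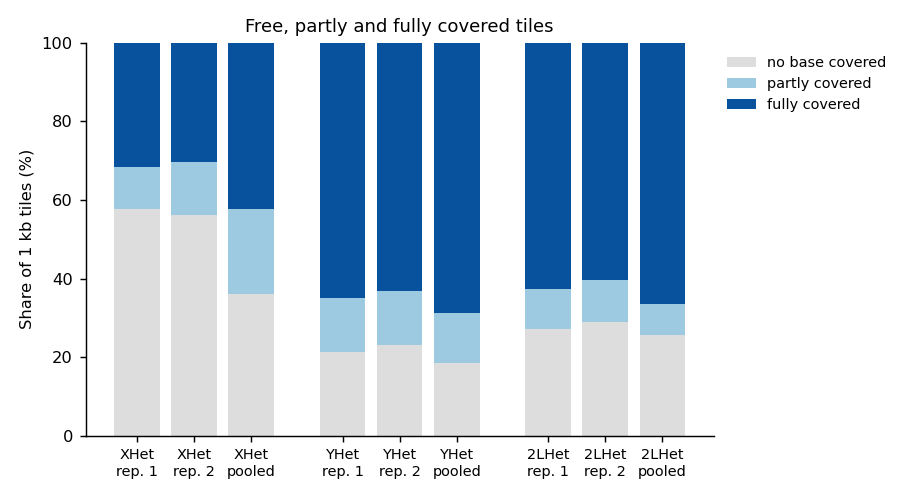
Share of 1 kb tiles (percent) with no base covered, partly covered and fully covered on XHet, YHet and 2LHet in the 3 lists. In replicate 1 free tiles make up 57.6% of XHet, 21.3% of YHet and 27.1% of 2LHet.

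The 2 stretches of XHet were separated at base 132164, where the first pooled cluster of at least 10 kb begins; this border was chosen after the profile was seen, so the contrast between the sides is a description. The right segment, 71.9 kb long, was covered over 84.9% in replicate 1 and over 86.0% in replicate 2, which average 85.4% ± 0.735 (SD, n = 2). The left segment, 132 kb long, was covered over 10.8% in replicate 1 and over 11.8% in replicate 2, which average 11.3% ± 0.696 (SD, n = 2). The right segment thus held 81.0% of all covered bases of XHet in replicate 1 and 79.8% in replicate 2. In the authors' pooled list the segments were covered over 93.0% and 29.0%. The sparse side of XHet gained the most in that list, where its covered length was 38.3 kb, against 14.3 kb and 15.6 kb in the replicates.

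YHet had no stretch as sparse as the left side of XHet. A window of 132 kb, the length of that side, was moved along YHet in steps of 1 kb, which gave 215 overlapping windows. The least covered of them had 57.5% in replicate 1 and 56.6% in replicate 2, and by the pooled list 60.6%. Among windows as long as the whole of XHet the lowest share on YHet was 64.9% in replicate 1 and 65.6% in replicate 2. Compared at equal length, YHet was thus also the more densely covered sequence.

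In consecutive windows of 20 kb, the 17 full windows of YHet ranged from 38.5% to 100% in replicate 1, with a median of 70.8%, and from 38.6% to 100% in replicate 2, with a median of 69.7%. The lowest was chrYHet:240001-260000 in both replicates, and chrYHet:140001-160000 was covered completely in both. Of these windows 16 reached 50% in replicate 1 and 13 in replicate 2. Those that reached it in replicate 1 alone lay close to the threshold, with 50.95 to 53.98% in replicate 1 and 49.4 to 49.9% in replicate 2. The 10 full windows of XHet ranged from 0% to 100%, with a median of 23.7% in replicate 1 and one of 17.4% in replicate 2, and 3 reached 50% in each. The window chrXHet:20001-40000 held no covered base in either replicate and was covered over 21.9% in the pooled list, while chrXHet:160001-180000 was covered completely in both replicates.

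The right segment of XHet consisted mainly of a pair of long domains. The longer, chrXHet:154528-196422 in the pooled list, spanned 41.9 kb. It was 1 pooled cluster with a score at percentile 94.7 of the pooled list, was met by 1 cluster in replicate 1 and by 4 in replicate 2, and was covered over 92.2% and 94.7%. The shorter, chrXHet:132164-152597, spanned 20.4 kb, was a single cluster in each replicate, and was covered over 100.0% in replicate 1 and 99.3% in replicate 2. Only 1.87 kb without a cluster in any list separated them. Near the right end lay chrXHet:201633-204112, 2.48 kb long, with the highest score of the XHet clusters that both replicates touched, 3.24, at percentile 97.0 of the pooled list. Replicate clusters covered 80.7% and 75.7% of it.

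The left segment of XHet held only clusters of at most 3.31 kb in any list. Its border was set at the first pooled cluster of at least 10 kb, so it could hold no pooled cluster of that length. There were 8 of 1.31 to 2.62 kb in replicate 1, 9 of 1.36 to 2.30 kb in replicate 2 and 19 of 1.06 to 3.31 kb in the pooled list. Their scores lay between percentiles 5.53 and 52.9 of the replicate 1 list, 13.3 and 61.5 of the replicate 2 list and 2.62 and 74.5 of the pooled list. The 3 clusters of the right segment in replicate 1 had scores between percentiles 85.2 and 91.1, above each cluster of the left segment. In replicate 2 the 6 clusters of the right segment lay between 53.9 and 98.6, so the sides overlapped there. The third-longest pooled XHet cluster touched by both replicates lay on the left side, at chrXHet:105521-108207. It was 2.69 kb long with a score at percentile 58.7, and was covered over 97.6% in replicate 1 but only 51.4% in replicate 2.

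By median length YHet was made of longer domains than XHet, and its clusters had scores in the upper part of each list. Clusters of 10 kb or more numbered 8 of 26 in replicate 1, 8 of 25 in replicate 2 and, pooled, 11 of 25. Over the whole lists such clusters made up 15.8%, 16.5% and 14.5%. On XHet there were 2 in each list, out of 11, 15 and 23. Median cluster length was 6.70 kb on YHet in replicate 1 and 7.08 kb in replicate 2, against 2.00 kb and 1.88 kb on XHet. On 2LHet, 2RHet, 3LHet and 3RHet it was 6.69, 7.22, 9.97 and 8.64 kb in replicate 1. In replicate 2 it was 9.33, 6.10, 8.10 and 7.98 kb on these sequences. Their clusters of 10 kb or more numbered 7 of 21, 67 of 166, 70 of 141 and 46 of 104 in replicate 1. Domains of this length were thus not particular to YHet. The median score of the YHet clusters lay at percentile 87.1 of the replicate 1 list, 79.0 of the replicate 2 list and 88.5 of the pooled list, and the lowest of them at 49.9, 47.8 and 66.5. On XHet the medians were at percentiles 47.6, 51.9 and 58.5, so within each list the YHet clusters ranked higher than those of XHet as a group. On 2LHet, 2RHet, 3LHet and 3RHet the medians lay at 71.3, 65.1, 69.6 and 74.1 in replicate 1. In replicate 2 they lay at 71.6, 58.0, 61.5 and 70.7, again in the upper part of the list but below YHet. Clusters of U, the arms and the other Het sequences make up the rest of each list, and a percentile is a position among all of them.

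The longest YHet domain was chrYHet:132317-167987, of 35.7 kb, a single cluster in each replicate with a pooled score at percentile 93.8. It was covered over 95.5% in replicate 1 and 95.4% in replicate 2. The next, chrYHet:21867-45193, spanned 23.3 kb and was covered over 99.4% by 1 cluster in replicate 1 and over 95.4% by 2 clusters in replicate 2. The third, chrYHet:51220-74238, spanned 23.0 kb and was covered over 99.3% and 93.5%. These long domains were therefore called almost whole in both libraries. The highest pooled scores belonged to shorter domains. They were 3.61 for chrYHet:262270-273400, of 11.1 kb, 3.36 for chrYHet:241807-246216, of 4.41 kb, and 3.31 for chrYHet:12317-21218, of 8.90 kb. Each was a single cluster in both replicates, covered over 90.9% or more.

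**Figure D3:**
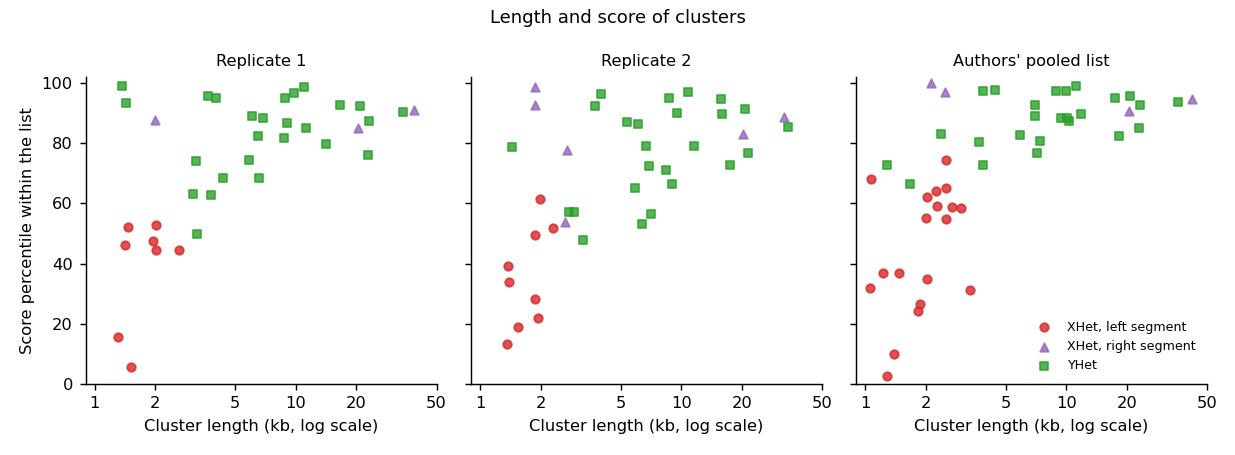
Cluster length (kb, log scale) against the percentile of the cluster's score within its list, for the left and right segments of XHet and for YHet in replicate 1, replicate 2 and the pooled list. Clusters of the left segment of XHet sit at the left, none longer than 3.31 kb and none above percentile 74.5, and YHet clusters reach 34.1 kb, 34.0 kb and 35.7 kb.

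Length and score were weakly related within YHet in replicate 1 and more closely in the other lists. Spearman's rho between length and score was 0.16 over the 26 clusters of replicate 1, 0.33 over the 25 of replicate 2 and 0.43 over the 25 of the pooled list. On XHet rho was 0.52 over 11 clusters, 0.65 over 15 and 0.51 over 23, values that include the contrast between its left and right segments. These are descriptions across clusters of the same libraries, and adjacent clusters are not independent.

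The unmarked stretches of the 2 sequences differed in their share of the sequence and in the longest of them. Their median lengths were close, with 3.29 kb on XHet and 2.88 kb on YHet. On YHet 26 stretches without a covered base in any of the 3 lists added up to 81.6 kb, or 23.5% of the sequence. Of these, 9 were at least 5 kb long and held 55.4 kb, 9 were shorter than 1 kb, and none reached 8 kb. The longest were chrYHet:216352-224078 with 7.73 kb, chrYHet:246217-252875 with 6.66 kb and chrYHet:329656-336211 with 6.56 kb. YHet was thus interrupted at many places by short gaps rather than at a single place by a long gap. On 2LHet, by comparison, a single stretch of 56.4 kb made up more of the 106 kb unmarked there than all others together.

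On XHet 23 unmarked stretches added up to 98.8 kb, or 48.4% of the sequence, and 93.8 kb of this lay in the left segment. The longest was the left end itself, chrXHet:1-14880, with 14.9 kb. The next were chrXHet:58073-68842 with 10.8 kb and chrXHet:35852-44970 with 9.12 kb, and 4 stretches exceeded 8 kb. Of the 23 stretches, 6 were at least 5 kb long and held 56.6 kb, and 2 were shorter than 1 kb. In single replicates the longest stretch without a cluster was 52.2 kb in replicate 1 and 25.3 kb in replicate 2, while on YHet it was 7.79 kb and 8.22 kb. The longest gap on XHet therefore differed between the replicate lists more than that on YHet. Completely free in all 3 lists were 73 XHet tiles, or 35.6%, and 64 YHet tiles, or 18.4%, against 78.0% of all tiles on the 13 sequences. Assembly gaps and sequence where reads cannot be placed were not assessed here, and their part in the unmarked stretches was not tested.

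Short clusters in the left segment of XHet stood at nearly equal distances. In the pooled list 8 consecutive clusters between bases 87897 and 131845 had midpoints 5.76 to 6.04 kb apart, with a mean spacing of 5.92 ± 0.0922 kb (SD over 7 spacings). The clusters were 2.00 to 2.99 kb long, with gaps of 3.12 to 3.89 kb between them, and had scores from 0.894 to 1.88. In order, the spacings were 5.95, 6.01, 5.76, 5.90, 6.04, 5.91 and 5.87 kb. The regular series ends where the 20.4 kb domain begins, 0.318 kb after its last cluster.

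For comparison, all 4186 series of 8 consecutive pooled clusters on the 13 sequences were ranked by the ratio of their widest to their narrowest spacing. The XHet series had the lowest ratio, 1.05. The next lowest was 1.22, in a series on sequence U, and the median was 11.2. The lowest ratio on YHet was 1.62, at rank 41. The series was noticed before this ranking was made, the ranked series overlap one another, and the ranking is given as a description only.

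The replicate lists held only some of these 8 clusters. Replicate 1 touched 5 of them, replicate 2 touched 4, both touched 3 and neither touched 2. The midpoints of the 5 replicate 1 clusters were 6.26, 11.6, 6.03 and 5.68 kb apart, or 1.06, 1.96, 1.02 and 0.961 times the median pooled spacing of 5.91 kb. Those of the 4 replicate 2 clusters were 11.4, 6.42 and 18.0 kb apart, or 1.92, 1.08 and 3.05 times that spacing. Each of these replicate clusters lay wholly inside a pooled cluster of the series, so its midpoint had to fall near the pooled positions. The replicate spacings therefore repeat the pooled series and are no separate evidence of regular spacing. The pooled list may draw on the same reads as the replicate lists and is not independent of them.

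**Figure D4:**
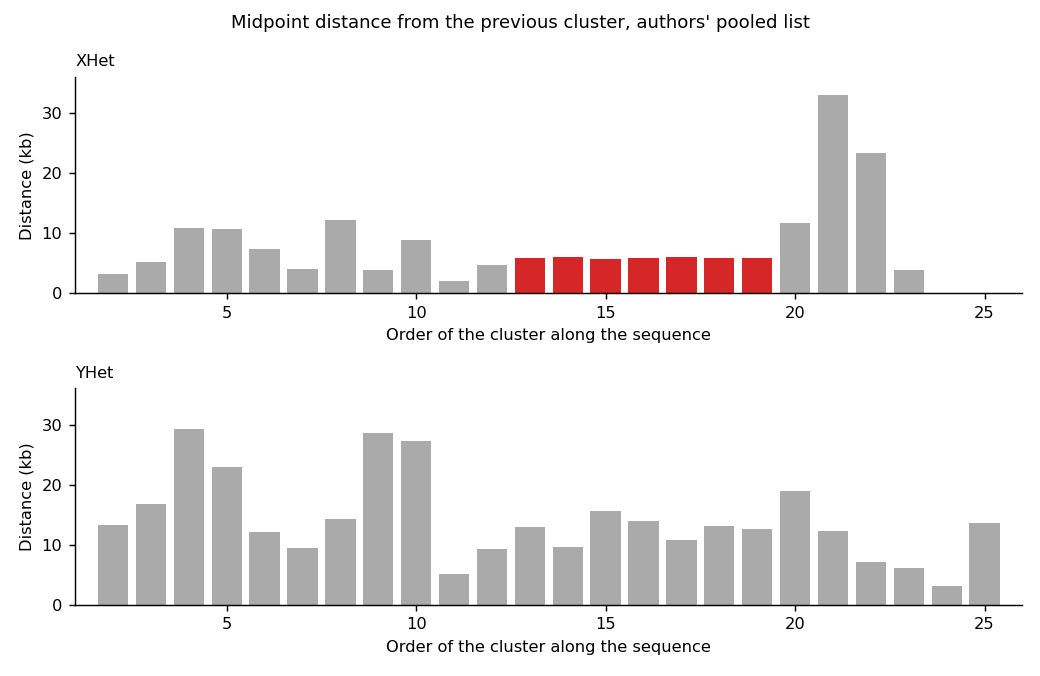
Distance in kb between the midpoint of each pooled cluster and that of the cluster before it, in order along XHet (upper panel) and YHet (lower panel). The red bars are the 7 spacings of 5.76 to 6.04 kb on XHet, and no such run of equal bars is seen on YHet.

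The call at 50% of a tile was the same in both replicates for 337 of 348 YHet tiles, or 96.8% (95% Wilson interval 94.4 to 98.2%), and for 189 of 205 XHet tiles, or 92.2% (87.7 to 95.1%). The share over all tiles of the 13 sequences was 97.5%, most of them free in both lists, and over the tiles of the 4 autosomal Het sequences it was 96.3%. The agreement on YHet was thus near the background and that on XHet below it, but the size of the gap between them depended on the settings. With only the upper 50% of the clusters by score the share was 95.1% on both sequences, and when 90% of a tile had to be covered it was 93.7% on XHet and 95.1% on YHet. In every other setting XHet also stayed below YHet, with 93.2% and 96.4% for tiles of 500 bp. When any covered base was counted the shares were 89.8% on XHet and 96.0% on YHet. Of the 16 XHet tiles that differed, 6 were called only in replicate 1 and 10 only in replicate 2, and 13 of them lay in the left segment, which holds 133 of the 205 tiles. The tiles that differed made up 9.77% of the left segment and 4.17% of the right. Across tiles, Pearson's r between the covered shares of the replicates was 0.94 over 348 tiles on YHet and 0.88 over 205 tiles on XHet, given as a description because neighbouring tiles share clusters.

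The base pair Jaccard index of the replicates, which is the length covered in both divided by the length covered in either, was 0.945 on YHet and 0.824 on XHet. Within XHet it was 0.950 in the right segment, as high as on YHet, and 0.440 in the left segment. The index rises with the covered share, so these values do not rank the regions by agreement beyond what density gives. Both replicates covered 9.16 kb of the left segment in common and 59.9 kb of the right.

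Support of pooled clusters by the replicates also differed between the sequences. Of the 25 pooled YHet clusters 23 were touched over at least 1 bp by both replicates, 1 was touched by replicate 1 alone and 1 had no replicate support. Of the 23 pooled XHet clusters 9 were touched by both, 2 by replicate 1 alone, 3 by replicate 2 alone, and 9 had no replicate support. In the whole pooled list 54.6% were touched by both and 25.2% by neither, so YHet stood above and XHet below the list in support by both. A longer cluster has more bases at which an overlap of 1 bp can occur. Median length in the pooled list was 8.90 kb on YHet, 2.11 kb on XHet and 2.36 kb over all clusters. The part of length in these shares was not tested. The left segment of XHet held 8 of its 9 unsupported clusters, but also 19 of all 23. Of the 9, 4 were shorter than 1301 bp, the shortest cluster of either replicate list, and so was the unsupported YHet cluster, chrYHet:97207-98486. Between the replicate lists, 25 of 26 replicate 1 clusters on YHet were touched by replicate 2 and all 25 of replicate 2 by replicate 1. On XHet these numbers were 9 of 11 and 11 of 15. Over the whole lists 78.2% of replicate 1 and 94.5% of replicate 2 clusters were touched.

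A pair of high-scoring clusters lacked support, and both were picked out after their values were seen. The XHet cluster chrXHet:197843-199954, 2.11 kb long, had a score of 4.88, the rank 3 among all 4277 pooled clusters, yet no cluster of either replicate touched it. The median score of the 1077 pooled clusters touched by neither replicate was 0.505, and 32 of the 100 highest-scoring pooled clusters were among them. On YHet the replicate 1 cluster chrYHet:181936-183296, 1.36 kb long, had the highest score of that replicate on YHet, 3.61, and was the only one there that replicate 2 did not touch. In the pooled list the cluster at this place, chrYHet:181652-183314, had the lowest score on YHet, 1.36. The number of reads behind these clusters is unknown.

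Where a cluster of replicate 1 paired with a single cluster of replicate 2 and with no other, the edges lay close together. On YHet there were 22 such pairs, and 28 of their 44 edges differed by at most 200 bp. The median shift was 40 bp at the start and 128.5 bp at the end, and the largest shifts were 2552 bp at a start and 1504 bp at an end. On XHet there were 8 pairs, and 11 of 16 edges differed by at most 200 bp, with median shifts of 89 bp and 118 bp. Edges of the clusters that were paired were thus placed with similar precision on both sequences. The order of scores was also similar in the 2 lists, with Spearman's rho of 0.91 over the 22 pairs of YHet and 0.81 over the 8 pairs of XHet, described across clusters of the same 2 libraries.

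**Figure D5:**
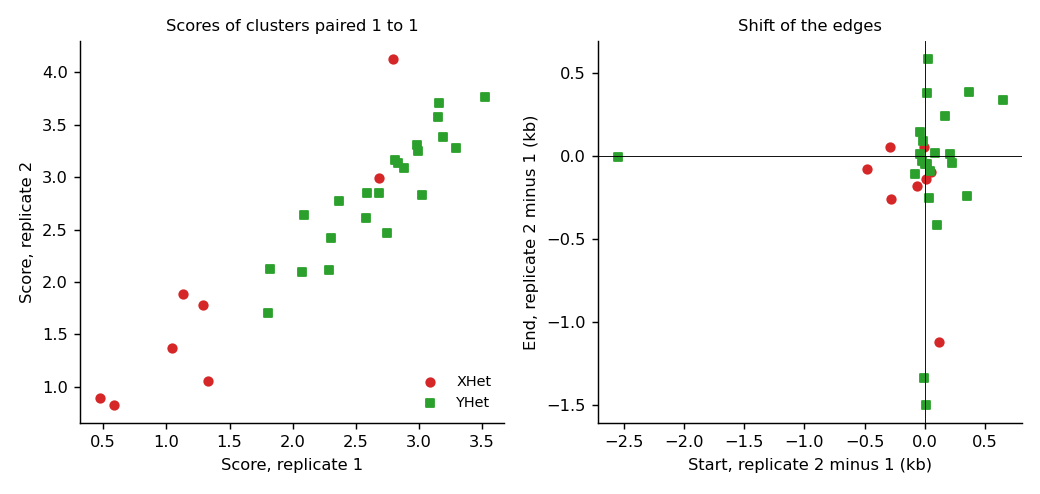
Left, scores of clusters paired 1 to 1 between replicate 1 (horizontal axis) and replicate 2 (vertical axis) on XHet (8 pairs) and YHet (22 pairs). Right, shift of the start and of the end of each pair in kb, as replicate 2 minus replicate 1, with most points within 0.5 kb of 0.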

How the data were processed

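The authors deposited 3 lists of clusters, each cluster with its first and last base on FlyBase release 5 (per the file headers) and a score. Bowtie 0.12.7 is named in the submitters' processing notes. For the caller, its threshold, the read filters, the scale of the score and how the replicates were combined, details are not given in the sources used. The score deposited by the authors was therefore used only to rank clusters, as printed values and in correlations. A stricter threshold shortens a list, so levels are not comparable between lists.

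Clusters were trimmed at the ends of the sequences (1 on XHet, in the pooled list) and intersected base by base (numpy 2.4.6, pandas 2.3.3 and scipy 1.17.1 under Python 3.11.15). Functions were tested on simulated clusters. Clusters were counted as touched at an overlap of at least 1 bp, and a percentile is a rank by score within a list. The named regions are, on each sequence, the 3 longest and the 3 highest-scoring pooled clusters touched by both replicates and the 3 longest stretches unmarked in all lists; others are marked as picked later. The regions and measures were chosen with earlier results of these data known. Depth, genes and sequence were not analysed here.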

Additional observations from a re-analysis of the deposited data

How the results depend on the processing

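Because the lists hold no read counts, what depth limits could not be assessed. YHet remained more densely covered than XHet under every alternative run. The mean covered share of XHet was 32.0% when each list was limited to its upper 50% by score, 40.0% without the first and last 10 kb of each sequence, and 51.5% in the pooled list. That of YHet was 70.5% with the upper 50% by score and 76.5% in the pooled list. The difference of YHet minus XHet was 38.5 percentage points with the upper 50% by score, 31.6 without the ends and 24.9 in the pooled list. The share of YHet tiles covered in both replicates was 75.9% when any covered base was counted and 63.2% when 90% of the tile was required. These values moved beyond the replicate SD or the 95% Wilson interval, and apart from the construction of the settings the cause was not tested. The other 40 values of these comparisons did not, among them those with tiles of 500 bp or 5 kb, tiles shifted by 500 bp and clusters closer than 1 kb merged. Without replicate 1 or without replicate 2 the difference was 33.0 or 35.0 percentage points. Values of this kind, for each covered share and for the difference, are counted among the 40. They lie within the SD for any pair of values and show nothing about stability. On the upper 50% by score XHet kept a mean of 6.5 clusters, its longest unmarked stretch averaged 94.7 kb and that of YHet 11.9 ± 5.85 kb (SD, n = 2), and the cluster at 105521 was lost from both replicates. Alternatives added after the data were seen gave a median spacing of 6.08 kb between the starts (SD 0.306) and 5.89 kb between the ends (SD 0.210) of the 8 regular XHet clusters, a wider spread than between their midpoints, and 76.2% for the right segment of XHet with its border 10 kb further left. No paired analysis was possible because ChIP and input share replicate numbers but no cluster list of an input was used here; the differences of YHet minus XHet were taken within each ChIP replicate.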
